A study of Caenorhabditis elegans with 2 samples.

Results

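The GATA factors of Caenorhabditis elegans are zinc finger proteins that bind sites with a GATA core, and separate sets of them act in the epidermis and in the endoderm. The 9 genes described here are 4 epidermal members (elt-1, elt-3, elt-6 and egl-18) and 5 endodermal members (elt-2, elt-4, elt-7, end-1 and end-3), out of 19985 protein-coding genes. They were chosen by name, with the presence and rank of CEH-43 peaks at them already known from these lists, so peaks at them are described and not tested. For each gene, summits were taken from within the gene or within 5000 bp of any of its annotated start sites, and each was ranked by the authors' signal value within its list.

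The binding was measured by chromatin immunoprecipitation with sequencing (ChIP-seq) in embryos of strain OP699, whose genotype is unc-119(tm4063) with the transgene wgIs699, which holds ceh-43::TY1::EGFP::3xFLAG and unc-119(+). The fusion carries its tag at the C terminus, the precipitation used an antibody to GFP, and the labels give no separate measure of expression from the transgene. The embryos, collected by egg bleaching, were of both sexes and mixed stages (age given as 3 hours), so all cell types are pooled, and the strain makes up 1 group of 2 biological replicates with no other genotype or treatment. An untagged strain was not analysed here. The lists held 998 thresholded peaks, 30000 pooled relaxed peaks, 29979 peaks of replicate 1 and 26127 of replicate 2. Read depth is unknown from such lists. No source used here names the scale of the signal, so ranks rather than signals are set side by side across lists.

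CEH-43 is the Distal-less type homeodomain protein of the worm, known for roles in the head epidermis and in dopamine neurons. In the embryonic epidermis, elt-1 specifies the fate of the major epidermal cells, elt-3 acts later in most of these cells, and egl-18 and elt-6 act together in the seam cells, the lateral row that divides after hatching. In the endoderm, end-1 and end-3 specify the single founder cell of the intestine, elt-2 and elt-7 then drive intestinal differentiation, and elt-4 is a short gene beside elt-2.

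The thresholded list placed summits at 3 of the 4 epidermal genes and at none of the 5 endodermal genes. Over all protein-coding genes, 10.2% had a thresholded summit in such a window. The window lengths differed: those of elt-6 and the endodermal genes were 10001 to 11169 bp, and 9.18% of genes with windows in that range had a summit. The windows of elt-1, elt-3 and egl-18 were 14344 to 21133 bp, and 17% of genes in that range had one. These shares are the background for the counts, and since the genes were chosen with the lists known, no more is read from the difference.

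The 3 thresholded sites are distinct sequences on chromosome IV, all of them in introns, and they are shown because they set egl-18, elt-6 and elt-1, which lie at 2 loci, apart from the other 6 genes, elt-3 among them. Each run is 101 bases of the forward strand of WBcel235 centred on the summit, from the RefSeq copy of the genome, and all 9 genes lie on that strand. Capitals mark TAATTA or TAATTG, the core of the site of Distal-less type homeodomains, and TGATAA or AGATAA, the core of GATA sites, on either strand.
egl-18 intron, chrIV:1906803-1906903: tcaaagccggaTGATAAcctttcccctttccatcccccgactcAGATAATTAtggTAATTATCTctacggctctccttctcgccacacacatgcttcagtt
egl-18 intron upstream of elt-6, chrIV:1916389-1916489: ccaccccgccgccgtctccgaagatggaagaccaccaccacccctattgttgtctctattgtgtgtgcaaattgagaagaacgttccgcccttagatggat
elt-1 intron, chrIV:9619044-9619144: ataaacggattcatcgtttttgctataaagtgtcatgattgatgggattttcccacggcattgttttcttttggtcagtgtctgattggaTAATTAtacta

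The strongest pooled summits of elt-3, end-1 and elt-2, which had no thresholded peak, are given for comparison in the same form. That of elt-2 is also the only pooled summit in the window of elt-4, and elt-7 has no pooled summit.
elt-3 downstream, chrX:13941628-13941728: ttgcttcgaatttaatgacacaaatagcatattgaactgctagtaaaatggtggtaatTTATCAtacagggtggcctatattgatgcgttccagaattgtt
end-1 intron, chrV:13985394-13985494: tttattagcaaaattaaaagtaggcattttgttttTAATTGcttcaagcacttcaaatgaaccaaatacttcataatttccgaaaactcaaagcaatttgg
elt-2 upstream, chrX:10480093-10480193: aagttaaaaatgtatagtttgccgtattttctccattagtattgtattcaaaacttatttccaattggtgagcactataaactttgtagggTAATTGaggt

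The strongest site of the group lay in egl-18 (WBGene00001186, chromosome IV, 1902322 to 1917840), a seam cell regulator. Its summit at 1906853, in the interval 1906625 to 1907080, had a signal of 274 and rank 227 in the thresholded and the pooled relaxed list. It had rank 232 in replicate 1 (signal 134) and rank 231 in replicate 2 (signal 143), with summits 11 and 7 bp away. The replicates thus placed it at nearly the same rank. Over all protein-coding genes, 505 (2.53%) had a summit of that rank or better in their window.

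The summit lay 4531 bp downstream of the first Ensembl start site of egl-18, upstream of its other annotated starts. RefSeq begins the gene 11124 bp later, at 1913446, and in that model the site is upstream of egl-18 and outside the 5000 bp window. The nearest protein-coding start site was that of egl-18. The sequence has TAATTA with first bases at -4 and 5 from the summit. Those words are parts of a perfect inverted repeat, AGATAATTAtggTAATTATCT, with arms of 9 bases and a spacer of 3, whose centre is 3 bases from the summit (chrIV:1906846-1906866). Within each arm AGATAA and TAATTA overlap, so each arm reads as both a GATA core and a homeodomain core. A further TGATAA begins at -39. The repeat with this spacing occurs 1 time in the nuclear genome. It was looked for after the sequence was seen.

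The second site is shared by both seam cell genes, since elt-6 (WBGene00001253, chromosome IV, 1917977 to 1921643) begins 136 bp after egl-18 ends and their windows share 5478 bp. Its summit at 1916439, in the interval 1916211 to 1916666, had a signal of 202 and rank 432. In replicate 1 it had rank 621 (signal 87.4, summit 47 bp away), and in replicate 2 rank 373 (signal 114, summit 4 bp away). It was 1538 bp upstream of the elt-6 start, the nearest one, and 2985 bp downstream of the nearest egl-18 start. Its sequence held neither word within 50 bp, and G and C made up 53.5% of it. The corresponding share was 46.5% at the stronger egl-18 site, and the median over 975 nuclear thresholded summits was also 46.5%.

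The third site lay in elt-1 (WBGene00001249, chromosome IV, 9614995 to 9620280), the gene at the head of epidermal specification. The summit at 9619094, in the interval 9618866 to 9619321, had a signal of 162 and rank 700. It ranked 696 in replicate 1 (signal 82.5) and 934 in replicate 2 (signal 79.8). It was 244 bp upstream of the last of the 6 annotated starts and 4099 bp downstream of the first. Its TAATTA begins 40 bases after the summit, and the sequence had no GATA core. At the first start itself, a summit 2 bp downstream was in the pooled list at rank 12550 and in replicate 1 at rank 6701, and replicate 2 had none within 100 bp.

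The fourth epidermal gene, elt-3 (WBGene00001251, chromosome X, 13934874 to 13941216), had no thresholded summit in its window. The highest −log10 q-value (as deposited) among the pooled summits of elt-3 was 0.636. Its strongest pooled summit (signal 82.9, rank 4508) lay past the end of the gene and ranked 11424 in replicate 1 and 5945 in replicate 2. A summit 4702 bp downstream of its last start had pooled rank 5828, and its ranks in replicates 1 and 2 were 2675 and 20281. The start site nearest to it was that of alg-1. The replicates therefore put different summits first at elt-3.

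**Figure D1:**
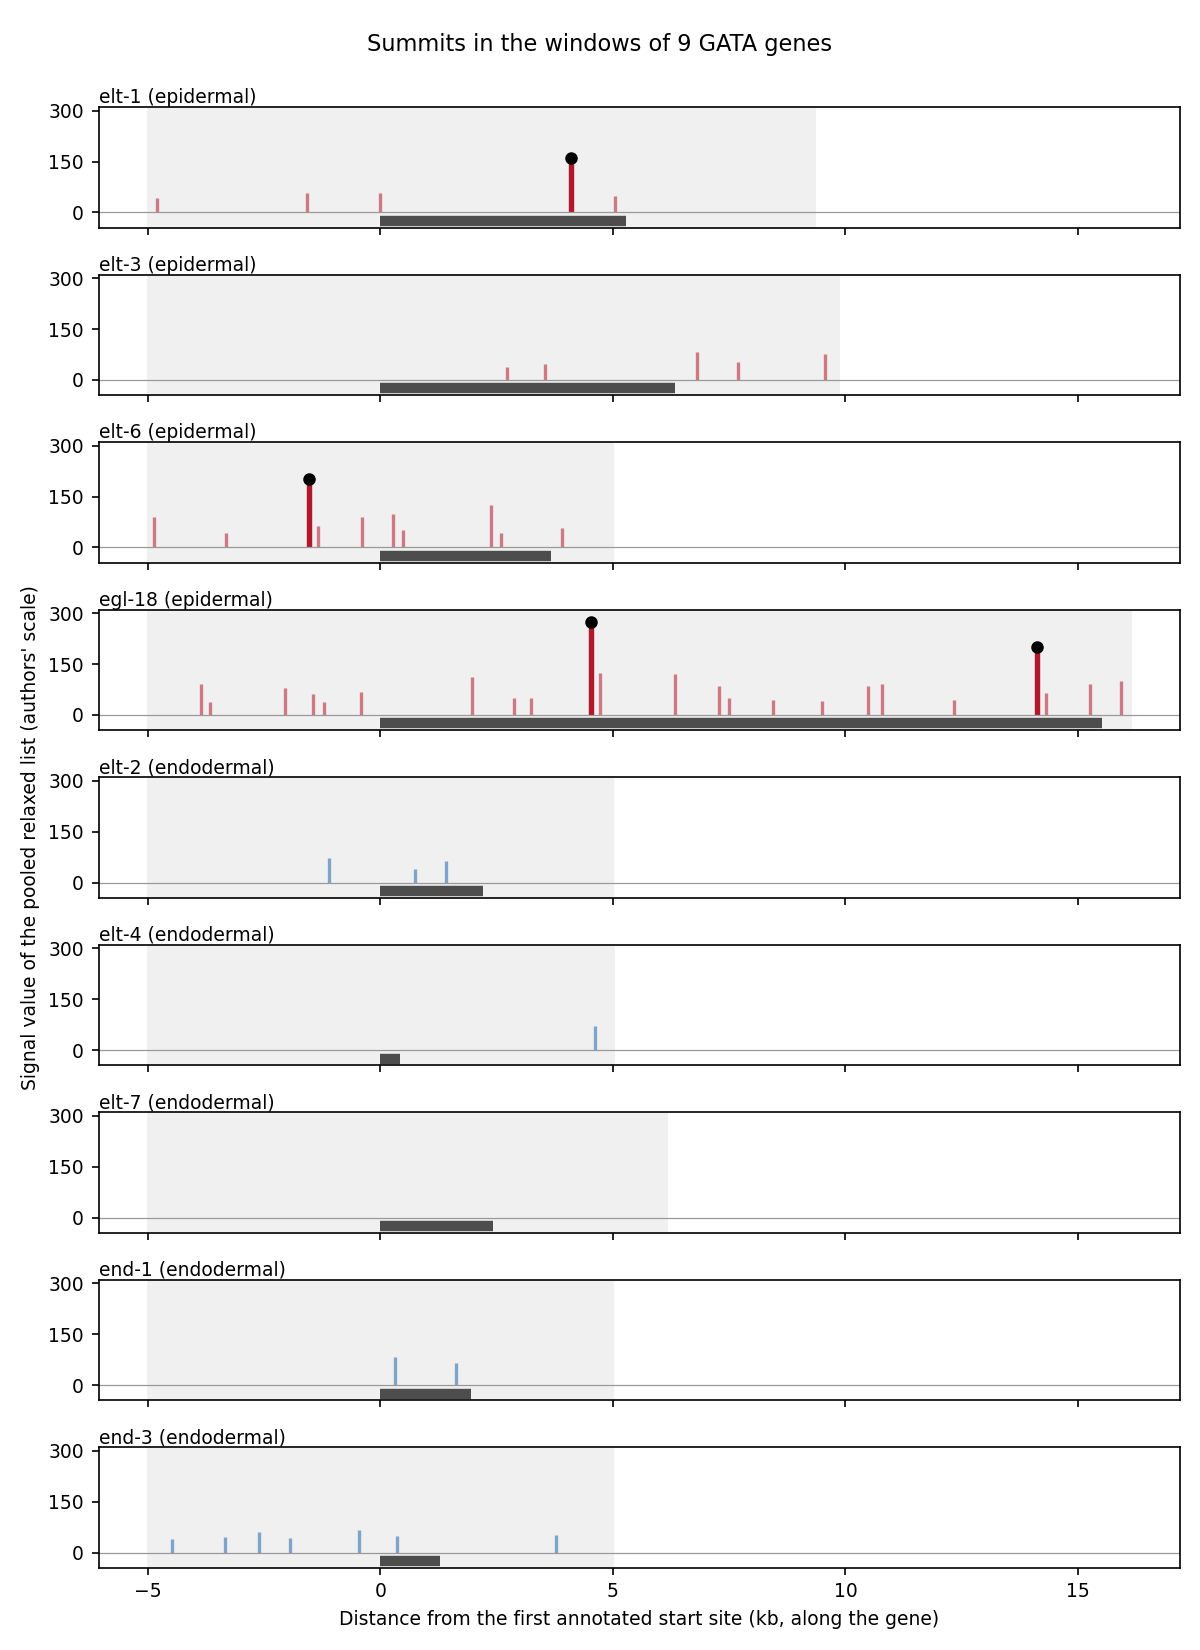
Summits of the pooled relaxed list in the windows of the 9 genes, by distance from the first annotated start site in kb along the gene (horizontal axis) and by signal value on the authors' scale (vertical axis, the same in every row). Grey shading is the window, the dark bar the gene, red lines are summits at epidermal genes, blue lines summits at endodermal genes, and black dots mark thresholded summits. The shared summit appears in the rows of both elt-6 and egl-18, and the row of elt-7 is empty.

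The endodermal genes were reached only lower in the lists. The highest −log10 q-value among their pooled summits was 0.657, at end-1, against 2.12 at each of the 3 thresholded sites. For end-1 (WBGene00001310, chromosome V, 13985128 to 13987074), one of the specifiers of the endoderm, the strongest summit lay 316 bp downstream of the start in an intron, with signal 83.6 and pooled rank 4384. It ranked 4529 in replicate 1 and 11299 in replicate 2. A second intronic summit of end-1 had pooled rank 9634, and ranks 5573 and 25330 in the replicates. Both end-1 summits ranked higher in replicate 1 than in replicate 2.

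For end-3 (WBGene00001311, chromosome V, 14014695 to 14015980), the other specifier, the strongest pooled summit lay 465 bp upstream of the start (signal 66.5, rank 8698; ranks 8855 and 13666 in the replicates). The strongest summit in its window in replicate 1 was a different one, rank 1495, next to the start of ddx-17 and without a counterpart within 100 bp in replicate 2. Of its 7 pooled summits, 5 lay nearer to the start sites of ddx-17, aip-1 and mtl-2 than to its own.

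For elt-2 (WBGene00001250, chromosome X, 10481240 to 10483441), the main regulator of intestinal genes, the strongest pooled summit was 1097 bp upstream of the start (signal 72.1, rank 6857). It ranked 11684 in replicate 1 and 9676 in replicate 2. The same summit is 4596 bp downstream of a start of elt-4 (WBGene00001252), which had no other pooled summit. The strongest elt-2 summit of replicate 1 was a different one, in the coding sequence of elt-2 (rank 3900, pooled rank 9532). Replicate 2 had none within 100 bp of it. At elt-7 (WBGene00015981, chromosome V, 4770670 to 4773086) the pooled list had none, while replicate 1 had 2 summits, the better at rank 6865, and replicate 2 had 1, at rank 22529. All of them were nearer to the start of another gene, C18G1.9 in replicate 1 and C18G1.8 in replicate 2. No summit of elt-7 was found in both replicates.

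Ordered by the strongest summit in the pooled list, the genes ran egl-18 (rank 227), elt-6 (432), elt-1 (700), end-1 (4384), elt-3 (4508), elt-2 and elt-4 (both 6857) and end-3 (8698), with elt-7 last. The ranges of best rank over the replicates were 231 to 232 for egl-18, 373 to 621 for elt-6 and 696 to 934 for elt-1, and these did not overlap each other. The separation of egl-18 from elt-6 depends on the Ensembl model. In the RefSeq model their shared summit, rank 432, is the strongest of both genes. For elt-3 the replicates gave best ranks of 2675 and 5945, and for end-1 4529 and 11299. For elt-2 they gave 3900 and 9676, for elt-4 9801 and 9676, for end-3 1495 and 6457, and for elt-7 6865 and 22529. From end-1 downwards the ranges of neighbouring genes overlapped, apart from elt-4 with end-3 and end-3 with elt-7. Except at end-1, the best ranks of these genes came from different summits in the 2 replicates. In replicate 2, elt-2 and elt-4 also share their best summit (rank 9676). Such ranges are not the spread of a single site, so the order of these genes is not settled by the 2 replicates. The lowest replicate rank of egl-18, elt-6 and elt-1, 934, was better than the highest of the other 6 genes, 1495. The pooled and thresholded lists were made from these same replicates, so this gap adds no separate support.

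**Figure D2:**
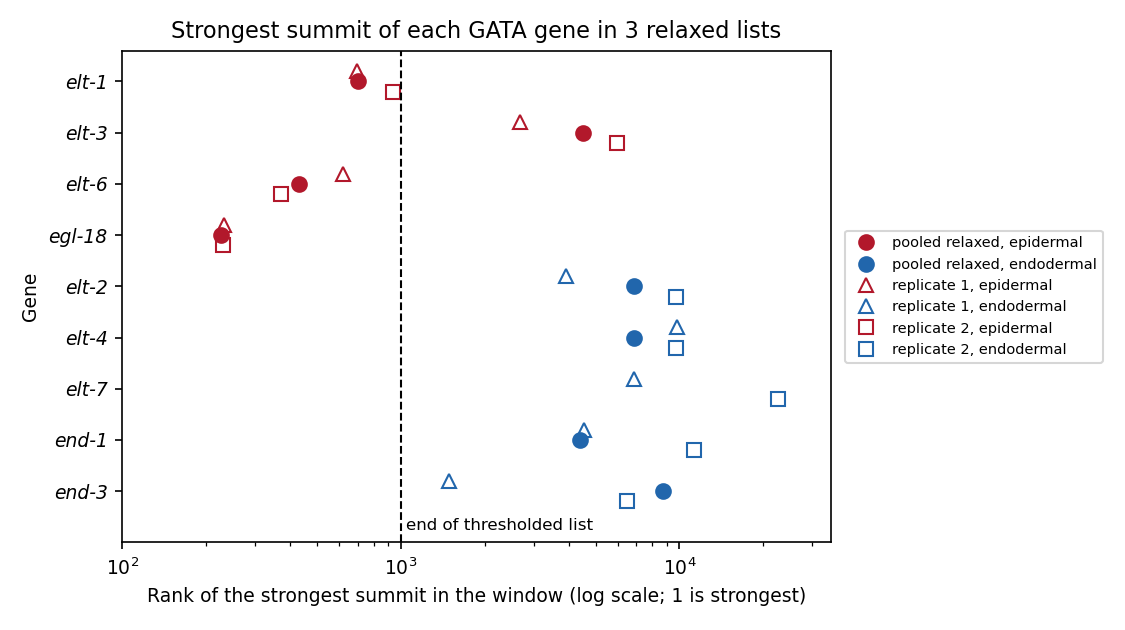
Rank of the strongest summit in the window of each gene (horizontal axis, log scale, 1 is strongest) in the pooled relaxed list (filled circles), replicate 1 (triangles) and replicate 2 (squares), with epidermal genes in red and endodermal genes in blue. The symbols of egl-18, elt-6 and elt-1 lie left of the dashed line at rank 998, where the thresholded list ends, and those of the other genes lie right of it. elt-7 has no circle because the pooled list had no summit there.

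The replicate lists were inputs to the thresholded list and to the choice of genes, so their counts are given as a description and add no separate support. Among the 998 strongest summits of replicate 1, the 3 genes egl-18, elt-6 and elt-1 had one and the endodermal genes had none, against 10.1% of all genes. In replicate 2 the counts were also 3 of 4 and 0 of 5, against 9.76% of all genes. Replicate 1 placed a further summit among its strongest in an elt-6 intron (rank 840), and replicate 2 a further one in egl-18 (rank 479), 199 bp from its strongest summit there.

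Further down the pooled list the endodermal genes were reached as well. To rank 2500, 3 epidermal and 0 endodermal genes had a summit, against 21.9% of all genes. To rank 5000 the counts were 4 of 4 and 1 of 5, against 36.9%. Among genes with windows as long as those of elt-1, elt-3 and egl-18, the shares at these ranks were 35.4% and 58.3%, and among genes with windows in the range of elt-6 and the endodermal genes they were 19.7% and 33.7%. To rank 10000 the counts were 4 of 4 and 4 of 5, against 56.8% of all genes, 79.1% of those with long windows and 53.2% of those with short ones, and no gene was added in the rest of the list, where 85.2% of all genes had a summit. Over the whole list the endodermal share, 4 of 5, was near that background.

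**Figure D3:**
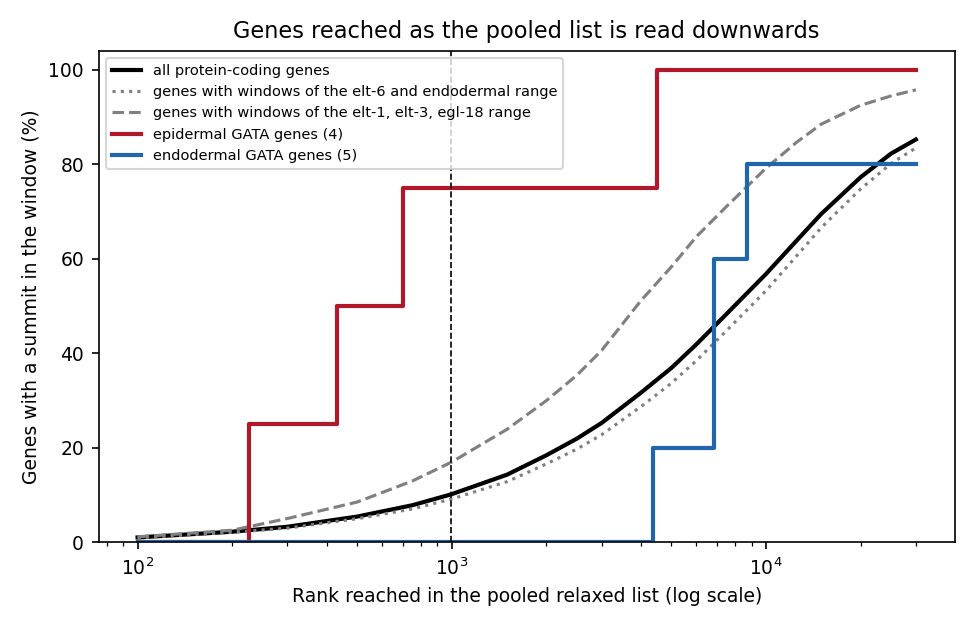
Percentage of genes with a summit in their window (vertical axis) among the peaks down to a given rank of the pooled relaxed list (horizontal axis, log scale), for the 4 epidermal genes (red steps), the 5 endodermal genes (blue steps), all protein-coding genes (black) and genes with windows in the range of elt-6 and the endodermal genes (grey dots) or of elt-1, elt-3 and egl-18 (grey dashes). The dashed vertical line marks rank 998. The red line reaches 3 of 4 genes before that line, and the first blue step is at rank 4384.

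The egl-18 and elt-6 locus also held many weaker summits. The pooled relaxed list is labelled as holding peaks and background, and its −log10 q-values at this locus ran from 2.12 down to 0.033. Of the 9 genes, egl-18 had the most, with 23 in the pooled list, 21 in replicate 1 and 22 in replicate 2, and elt-6 had 10, 9 and 10. As many as in egl-18 were in the pooled windows of 0.11% of protein-coding genes (22 genes), whatever their window length. The egl-18 window was 21133 bp long, against a median of 10001 bp over all protein-coding genes. The RefSeq model of egl-18 begins 11124 bp later, and pooled summits were not counted in its shorter window. Apart from egl-18 and elt-6, the counts at the listed genes ran from 0 at elt-7 to 7 at end-3 in the pooled list. In replicate 1 end-3 had 10 summits, more than elt-6, and in replicate 2 it had 3. Per 10 kb of window, egl-18 had 10.9 pooled summits, against 2.99 over the nuclear genome, while elt-1 had 3.49 and elt-3 3.37. The windows of elt-6 and end-3, with 10 and 7 pooled summits, were each 10001 bp long.

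Taken as 1 stretch of 25656 bp (chrIV:1897322-1922977), this locus held 27 pooled summits, a stretch singled out after its values were seen. The genome was divided into 3905 tiles of this length, with a median of 7 pooled summits, and 3 tiles (0.0768%) had 27 or more. Replicate 1 had 24 summits there, a number reached in 6 tiles, and replicate 2 had 25, reached in 2 tiles. In the thresholded list the locus had 2, and 3.53% of tiles had as many. By gene, 1.18% of protein-coding genes had 2 or more thresholded summits in their window, egl-18 among them. Peaks of the relaxed list can overlap, and the tile counts take each summit separately. The 27 summits fell in 18 separate intervals, and the 29977 pooled summits of the nuclear genome in 25248.

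Just below the end of the thresholded list (lowest signal 139) were 3 more summits of this locus. They lay in an elt-6 intron (rank 1354, signal 124), in egl-18 at 199 bp from its strongest summit (rank 1383, signal 123), and further along egl-18 (rank 1511, signal 120). The thresholded list held the 998 strongest peaks of the pooled list, so these 3 fell outside it by pooled signal. Their ranks in the replicates are given without a comparison to the thresholded sites. The elt-6 intron summit ranked 840 and 3827, the last egl-18 summit 3076 and 1082, and the one beside the strongest site 479 in replicate 2 with none in replicate 1 within 100 bp. Outside the 5000 bp window, 5961 bp upstream of the first egl-18 start, lay another thresholded peak (chrIV:1896133-1896588, signal 259, rank 259), with ranks 158 and 467 in the replicates and TAATTA or TAATTG at 2 places within 50 bp.

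Of the 37 distinct pooled summits at epidermal genes, 27 came from the egl-18 and elt-6 locus, and the 37 fell in 28 separate intervals. The 12 at endodermal genes fell in 12 intervals, and 5 of them, against 2 of the 37, were nearest to the start of a gene outside the GATA family. Summits of pooled rank 2500 or better, 8.33% of the pooled list, numbered 7 at epidermal genes and 0 at endodermal genes. Of those 7, 6 lay in the egl-18 and elt-6 locus and 1 in elt-1. Both replicates had a summit within 100 bp for 17 of the 37 epidermal summits and 4 of the 12 endodermal ones, beside 29.7% over the whole pooled list. All 3 thresholded sites were found in both, as were 94.7% of all thresholded summits.

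**Figure D4:**
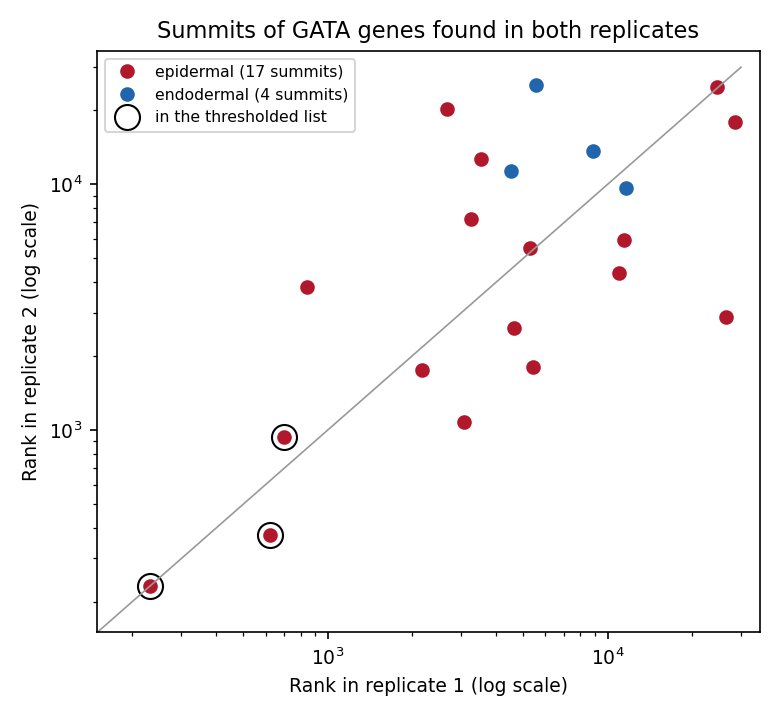
Rank in replicate 1 (horizontal axis) and replicate 2 (vertical axis), both on log scales, of the pooled summits at GATA genes that had a summit within 100 bp in both replicates: 17 at epidermal genes (red) and 4 at endodermal genes (blue). Rings mark the 3 thresholded sites, and the line marks equal rank. The thresholded list came from a reproducibility step and held the 998 strongest peaks of the pooled list, which was made from both replicates. The high ranks of its sites here therefore follow in part from how they were kept, and their nearness to the line was not tested.

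The words at the summits were then counted within 50 bp. TAATTA or TAATTG was at 2 of the 3 thresholded sites, against 32.1% of nuclear thresholded summits and 12% of windows 500 bp away from them. In the pooled list it was at 8 of 37 epidermal summits and 5 of 12 endodermal summits, against 25.7% of all nuclear pooled summits. The strongest sites of end-1 and elt-2 each had TAATTG, with first bases at -15 and 41 from the summit, and that of elt-3 had none. Among the sites whose sequences are shown, presence of the word did not follow the ranks. Over all nuclear summits, the share with the word was higher in the thresholded than in the pooled list. TGATAA or AGATAA was at 7 of 37 epidermal and 0 of 12 endodermal summits, against 12.8% of all nuclear pooled summits and 14.2% of their flanking windows. Over nuclear thresholded summits its share was 8.62%, against 14.7% of flanking windows. The shorter TAAT was at 58.5% of thresholded summits and in 63.0% of their flanking windows. In the pooled list the direction was opposite, with 67.7% of summits and 62.5% of flanking windows. TGATNNAT, with N any base, was at 6 of 37 epidermal and 1 of 12 endodermal pooled summits. Over all nuclear pooled summits its share was 6.34%, against 7.51% of flanking windows. Of the 3 thresholded sites only that of elt-1 had TGATNNAT, against 3.79% of nuclear thresholded summits. The absence of a match says only that these letters are not in the window.

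The other GATA genes of the early endoderm, med-1 and med-2, act upstream of end-1 and end-3. At med-1 the strongest pooled summit had rank 21786, and the strongest in replicates 1 and 2 ranked 24027 and 5123. The window of med-2 held a thresholded summit (signal 225, rank 343; ranks 647 and 249 in the replicates) 3253 bp downstream of its start, but this summit lay in a tRNA gene within an intron of brd-1, whose start was nearer.

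Other genes of the same tissues were counted in the same window, as lists written with earlier results of these data known. The share of all protein-coding genes with a thresholded summit was 10.2%, and the window lengths of these lists were not compared. Of 12 further epidermal regulators, 1 (8.33%) had a thresholded summit: vab-7, an even-skipped type homeobox gene, in an intron (signal 203, rank 428). Of 19 cuticle genes, mostly collagens made by the epidermis, none had one, and of 19 intestinal genes 1 did (5.26%). This was spl-1, the sphingosine phosphate lyase gene, with 2 summits (ranks 589 and 934), the stronger of them 283 bp upstream of the ribosomal protein gene rps-24. Of 14 other regulators of endoderm and mesendoderm, 5 (35.7%) had one. The strongest were at sys-1 (a beta-catenin; rank 77, but 249 bp upstream of eif-3.C), pop-1 (the TCF factor that acts with it; rank 165, in an intron), med-2 and mom-5 (a Frizzled receptor; rank 456, 741 bp upstream). The last of the 5 was lit-1 (rank 877, with ranks 632 and 3736 in replicates 1 and 2), named after its values were seen. The nearest thresholded summit to a start site was 21723 bp away for elt-2, 22947 bp for end-1, 27416 bp for elt-4, 39069 bp for elt-7 and 52514 bp for end-3.

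By number of thresholded summits in the window, the first 5 protein-coding genes were all mitochondrial (16 or more each). Among nuclear genes the highest number was 4, in 5 genes.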

How the data were processed

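CEH-43 ChIP-seq peak lists of 2 biological replicates (1 group) were read as deposited. Deposited text files state that each replicate's relaxed list was derived from its alignment and a control file common to both, the pooled relaxed list from both alignments with the same control file, and the thresholded list from these 3 lists by an irreproducible discovery rate step, all on ce11. The 998 thresholded peaks were the 998 strongest of the pooled relaxed list, with the same signals. No source used here names the aligner, peak caller or cutoff. The deposited values per peak are a signal and, on a −log10 scale, a q-value. The q-value was not used for ranking, since many peaks share its maximum. Sonicated fragments were 200 to 800 bp, per the labels.

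Genes and start sites came from Ensembl release 115 and sequence from RefSeq, both WBcel235, the assembly that ce11 names; no interval ended past a chromosome. Summits were ranked by signal (ties share the better rank) and matched between lists within 100 bp. Words on either strand were looked for within 50 bp of each summit, overlaps counted. Window and word functions were checked on planted positions. The members, lists and rules were chosen with earlier results of these data known. The naming rule took all members, med-1, med-2, up to 4 genes a list by signal, the 5 genes with the most summits (given here as a group) and genes with a start nearest to a member's thresholded summit. Other genes were named after their values were seen. The sequence of 1 summit is not reported here. No test was made, and the planned comparison of zinc finger residues was not run. Of the list symbols, opt-2 matched no gene. Analyses used Python 3.11.15, pandas 2.3.3 and matplotlib 3.10.9.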

Additional observations from a re-analysis of the deposited data

How the results depend on the processing

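The counts of members with a thresholded summit (3 of 9 in all, 3 of 4 epidermal, 0 of 5 endodermal) stayed within 1.5 times under the 9 alternatives tried, and the endodermal count was 0 in each. That limit is wide for counts this small, since a change from 3 to 2 or to 4 stays within it. With a window of 1000 bp or the stronger 499 peaks, 2 epidermal genes had one; these were elt-1 and egl-18 in the first case and elt-6 and egl-18 in the second. With 10000 bp it was 4, elt-3 being added by a summit (rank 966) 3371 bp upstream of alg-1, and the summits at epidermal genes rose from 3 to 5. To leave out a replicate, the 998 strongest summits of the other one took the place of the thresholded list. Either way this gave 3 genes and 4 summits, the counts described above, which add no separate support. With RefSeq gene models, an alternative chosen after seeing the data, 2 summits were left, since egl-18 starts later there. The summits with TAATTA or TAATTG numbered 2 within 50 bp, 1 within 30 bp and 3 within 100 bp, and 2 to 3 with a replicate left out. All 3 sites were in both replicates within 50 or 200 bp and among the 998 strongest of each. Counts of genes and summits were the only values compared. No paired analysis was possible because there is 1 group. With 2 replicates and no read counts, the error of a single rank is given by 2 values only.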

Other observations

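The 9-base arm of the inverted repeat at the egl-18 site, AGATAATTA or its reverse complement, was counted at all nuclear summits after it had been seen there. The egl-18 summit itself is included in the counts. The arm was within 50 bp of 11 of 975 nuclear thresholded summits (1.13%) and in 3 of 1950 windows 500 bp away (0.154%). In the pooled relaxed list it was at 164 of 29977 summits (0.547%) and in 57 of 59954 flanking windows (0.0951%). The nuclear genome holds it 1685 times. The egl-18 site had the best rank of the 11, followed by a summit 3729 bp upstream of lin-33 (rank 293) and summits nearest to the starts of dis-3 (rank 448), the homeobox gene ceh-58 (464, in its upstream region) and mls-2 (475), a homeobox gene of mesodermal and neuronal lineages. The other 6 ranked 612 to 907. These 5 genes were named by rank after the values were seen, and no shared function was tested. The word is made of a GATA core and a homeodomain core that overlap, and whether either protein class is bound there was not tested.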
